A study of Mus musculus with 4 samples.

Results

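The 10 genes described here, Fscn1, Lcp1, Marcks, Marcksl1, Coro1a, Gsn, Capg, Ezr, Msn and Vim, encode proteins that bundle, cap, sever or anchor actin filaments beneath the plasma membrane, or form intermediate filaments. They were grouped by these known roles, with earlier results of these data known. Every probe set that the platform annotation pairs with them was taken. This gave 12 of the 10276 probe sets with a single gene symbol, and 10 of 8220 genes. Total RNA of mouse dendritic cells was measured on 4 expression arrays. The groups were a differentiation series of dendritic cell progenitors from bone marrow, amplified in vitro, cells after 7 days and cells after 10 days of differentiation, and cells of 10 days that also had TNFalpha for 16 hours, which are set against the day 10 cells without it. Strain, age, the number of mice or cultures, and any agent that all groups received, are not stated in the labels.

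Each group had 1 array, so no spread between replicates exists and no test was possible. Every ratio below is a difference between 2 arrays. As the only error estimate, the log2 ratios given by the 2 brightest probe sets of the same gene differed with an SD of 0.61 for day 7 against progenitor (374 genes), 0.71 for day 10 against day 7 (372 genes), 0.81 for day 10 against progenitor (343 genes) and 0.56 for TNF against day 10 (370 genes). Per single probe set, the SD that follows is 0.43, 0.50, 0.58 and 0.40 in the same order. This estimate holds the error of probes and no error of cultures. In a mixed culture, fewer cells of a type and less RNA per cell cannot be told apart.

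A dendritic cell changes shape as it matures. It extends actin-rich sheets and processes, the dendrites that give the cell its name, takes apart the adhesive podosomes of the immature stage, and gains the ability to migrate through lymph vessels to lymph nodes. Fascin, the Fscn1 product, packs parallel actin filaments into the tight bundles that stiffen such processes. L-plastin (Lcp1) also bundles filaments, MARCKS and MARCKS-like 1 tie actin to membrane phosphoinositides, coronin 1A (Coro1a) restrains branched networks, gelsolin (Gsn) severs and caps filaments, CapG (Capg) caps without severing, and ezrin (Ezr) and moesin (Msn) link filaments to membrane proteins. Vimentin (Vim) builds the intermediate filaments of mesenchymal and blood cells.

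The promoter windows of 3 of these genes are shown because their transcripts differed with TNF in opposite directions, Fscn1 and Marcksl1 being higher and Gsn lower. Each window runs from 250 bases before to 50 after an annotated start in RefSeq (build GRCm38.p6), 5′ to 3′ on the gene's strand. Capitals mark matches on either strand to the cAMP response element TGACGTCA, the TATA element TATAAA, or GGGNNNNTCC, a loose form of the NF-kB site. The windows lie at chr5:142960105-142960404 (plus strand), chr4:129513331-129513630 (plus strand) and chr2:35256109-35256408 (plus strand).
Fscn1: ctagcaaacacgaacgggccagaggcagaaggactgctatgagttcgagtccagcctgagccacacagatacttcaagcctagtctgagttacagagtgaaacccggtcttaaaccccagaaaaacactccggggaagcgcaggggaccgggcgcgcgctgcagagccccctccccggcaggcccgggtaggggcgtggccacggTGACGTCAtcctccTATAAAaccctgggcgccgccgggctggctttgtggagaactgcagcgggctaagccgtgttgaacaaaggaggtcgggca
Marcksl1: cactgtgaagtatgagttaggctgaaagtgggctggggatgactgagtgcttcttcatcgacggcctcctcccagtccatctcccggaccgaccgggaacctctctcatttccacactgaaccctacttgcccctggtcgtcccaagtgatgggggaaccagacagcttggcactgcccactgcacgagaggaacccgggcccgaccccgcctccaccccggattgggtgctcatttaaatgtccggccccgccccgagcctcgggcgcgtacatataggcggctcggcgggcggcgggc
Gsn: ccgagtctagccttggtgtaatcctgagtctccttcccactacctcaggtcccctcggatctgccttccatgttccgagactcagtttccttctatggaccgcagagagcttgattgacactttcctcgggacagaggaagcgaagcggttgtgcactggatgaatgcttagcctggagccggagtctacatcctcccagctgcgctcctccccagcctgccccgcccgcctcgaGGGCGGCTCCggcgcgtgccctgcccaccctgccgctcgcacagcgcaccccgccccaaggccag

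The Fscn1 window held the cAMP response element, a palindrome, from position -45 and the TATA element from -31, with no overlap. The first of these is present in 1.79% of all 32851 windows, and the second in 13.6%. Among 13 windows of 9 of the 10 genes, Fscn1 was the only one with the cAMP response element, and Vim the other one with a TATA element. The Gsn window held the NF-kB letters from position -15, and they also occurred in the windows of the other 2 Gsn starts and in that of Vim, against 19.2% of all windows. The letters were absent from the Fscn1 and Marcksl1 windows. The CArG box, the serum response factor site, matched 0 of the 13 windows and 1.63% of all. A match of letters is a description and no evidence of binding.

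Intensities are linear and were scaled here to a common 75th percentile. Levels of 428 units or less, the 60th percentile of all values, were treated as dim and raised to that floor for ratios, so that a ratio against a dim array is a lower bound, written "at least". Probe sets under the floor on both arrays get no ratio. Of the 12 probe sets, 7 lay above the floor on all 4 arrays, Marcks and the brighter Capg probe set on 3, and Msn, Vim and the dimmer Capg probe set on 0. In the culture arrays 13 of 14 measured dendritic cell marker genes were above the floor, against 2 in progenitors. Zbtb46 stayed under it throughout. Of 9 progenitor markers, 7, 7 and 3 lay above it in progenitors, at day 7 and at day 10, and 2 with TNF. Their sums on these arrays were 85655, 13952, 3612 and 2432 units, so they were already lower at day 7. Kit lay the other way, at 647, 1308, 1362 and 1624 units. Stromal markers were of interest because fibroblasts are rich in several of the 10 transcripts. They were above the floor for 0 of 11 genes on every array, with sums between -436 and 447 units. Of other blood markers, 0 to 1 of 7 T and NK cell genes were above the floor. For B cells it was 1 to 2 of 4 genes, and for megakaryocytes 0 to 2 of 5. Among tissue markers, 1 to 2 of 6 epithelial genes and 1 of 10 genes of other organs were above it. Vwf, in the megakaryocyte list, was at 399 units in progenitors, 7080 at day 7, 13758 at day 10 and 5878 with TNF. Gp9 of that list passed the floor only at day 7, at 948 units. Pax5, in the B cell list, was at 857, 1230, 2094 and 2134 units over the same arrays.

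Fascin was far higher at day 7 than in progenitors and higher again with TNF. The Fscn1 probe set (92838_at) stood at 1058 units in progenitors, 7778 at day 7 and 5284 at day 10. That made it 7.35-fold higher at day 7 than in progenitors, a log2 ratio of 2.88 that ranked 40th from the top of 4886 probe sets. At day 10 it was 1.47-fold lower than at day 7 and 4.99-fold higher than in progenitors. The log2 ratio of -0.56 for day 10 against day 7 is smaller than the SD of 0.71 between 2 probe sets. It is larger than the SD of 0.50 per probe set. With TNF Fscn1 reached 16553 units, against 5284 units at day 10 without TNF. That is 3.13-fold higher (log2 ratio 1.65) and 54th from the top of 4887. The level was thus lowest in progenitors and highest with TNF, with the 2 untreated culture arrays between.

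Both MARCKS genes were also higher with TNF. Marcks (96865_at) was under the floor in progenitors at 167 units, and stood at 1973 units at day 7 and 3019 at day 10. It was at least 4.61-fold higher at day 7 and at least 7.05-fold higher at day 10 than in progenitors, and 1.53-fold higher at day 10 than at day 7. With TNF it was at 6803 units, against 3019 units at day 10, a 2.25-fold difference (log2 ratio 1.17). Marcks was therefore highest on the TNF array and, unlike Fscn1, no lower at day 10 than at day 7. For that step the log2 ratios, 0.61 for Marcks and -0.56 for Fscn1, are both smaller than the SD of 0.71 between 2 probe sets. Both are larger than the SD of 0.50 per probe set.

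Marcksl1 (97203_at), the smaller relative of Marcks, was bright in progenitors already. It stood at 3354 units in progenitors, 5501 at day 7 and 3829 at day 10, and no step between these 3 arrays reached 2-fold. Its log2 ratio was 0.71 for day 7 against progenitor, -0.52 for day 10 against day 7 and 0.19 for day 10 against progenitor. With TNF it was at 11777 units, against 3829 units at day 10, or 3.08-fold higher (log2 ratio 1.62, 58th from the top of 4887). The TNF array held the highest Marcksl1 level of the 4.

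**Figure D1:**
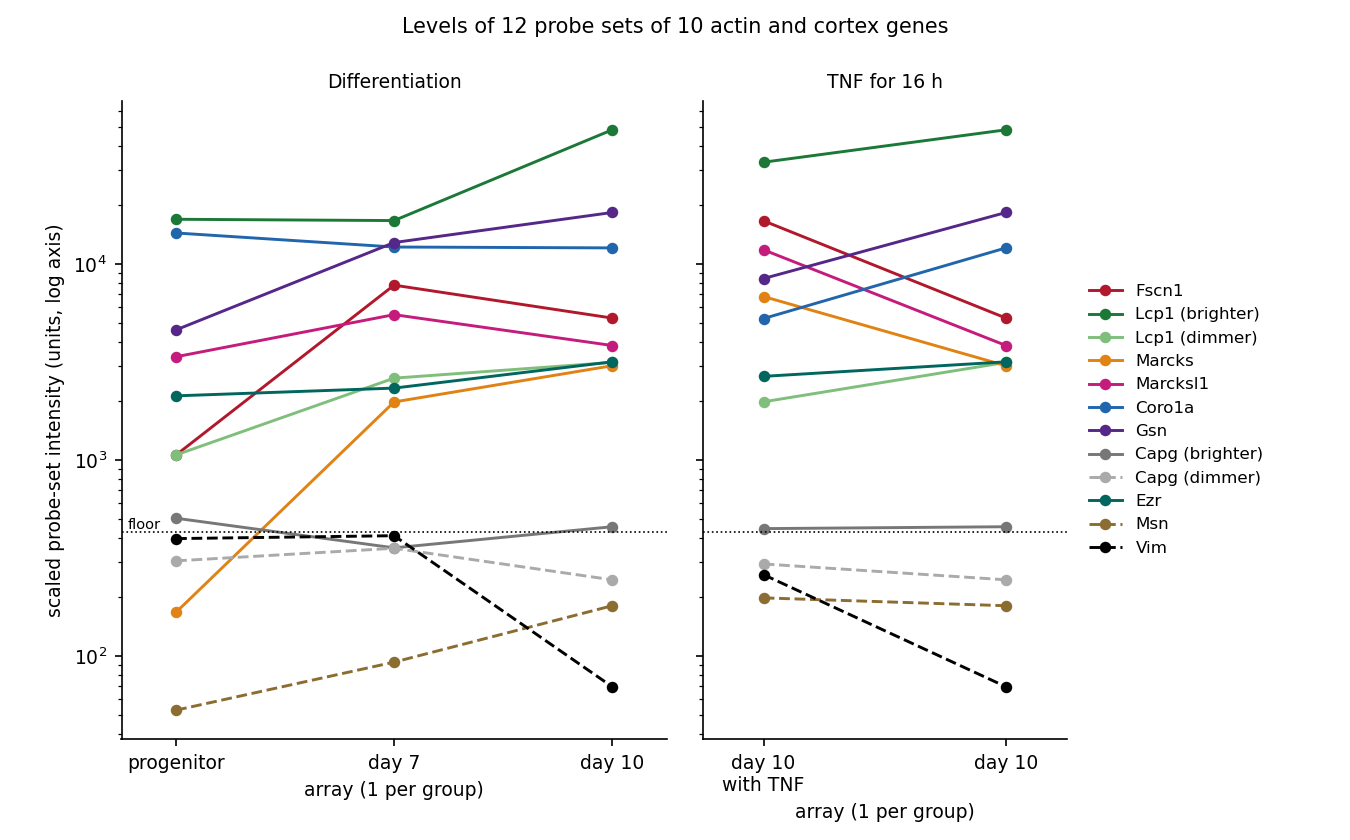
Scaled intensity (log axis) of the 12 probe sets on each array, with the differentiation series on the left and the TNF array beside the day 10 array on the right; each point is 1 array, the dotted line is the floor of 428 units, and dashed lines join probe sets that never passed it. Fscn1, Marcks and Marcksl1 lie higher with TNF than at day 10, while Coro1a, Gsn and both Lcp1 probe sets lie lower.

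Gelsolin and coronin 1A lay on the other side with TNF. Gsn (93750_at) had 4599 units in progenitors, 12829 at day 7 and 18261 at day 10. It was 2.79-fold higher at day 7 and 3.97-fold higher at day 10 than in progenitors, with log2 ratios of 1.48 and 1.99, while day 10 against day 7 gave 0.51. With TNF it was at 8407 units, against 18261 units at day 10, which is 2.17-fold lower. This log2 ratio of -1.12 became -0.93 after quantile normalization, just short of 2-fold. The TNF level still lay above that in progenitors.

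Coro1a (96648_at) differed by at most 1.19-fold through differentiation, at 14356 units in progenitors, 12172 at day 7 and 12048 at day 10. Its log2 ratios were -0.24 for day 7 against progenitor, -0.01 for day 10 against day 7 and -0.25 for day 10 against progenitor, all within the disagreement between probe sets. The last of these became -0.72 after quantile normalization. With TNF it was at 5256 units, against 12048 units at day 10, a 2.29-fold difference (log2 ratio -1.20, 136th from the bottom of 4887). The TNF array thus held the lowest Coro1a level of the 4.

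L-plastin was read by a pair of probe sets that differed during differentiation. The brighter one (94278_at) stood at 16862 units in progenitors, 16607 at day 7 and 48214 at day 10, and the dimmer one (101327_at) at 1059, 2609 and 3139. For day 7 against progenitor they gave log2 ratios of -0.02 and 1.30, and for day 10 against day 7 of 1.54 and 0.27, so the probe sets place the difference at different steps. For day 10 against progenitor they gave 1.52 and 1.57. The brighter one's 1.54 became 0.50 after quantile normalization and 0.83 after centring on probe sets of like level, and its 1.52 became 0.58 and 0.84. For day 10 against day 7, probe sets of like level had a median log2 ratio of 0.70. The highest value of any probe set was 30560 units at day 7 and 137313 at day 10. How much of the 1.54 this shift of bright probe sets makes up was not tested. With TNF the brighter one was at 32959 units, against 48214 at day 10, and the dimmer one at 1976, against 3139. Those log2 ratios of -0.55 and -0.67 have the same sign and do not reach 2-fold.

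Ezrin differed little. Ezr (100084_at) stood at 2119 units in progenitors, 2322 at day 7 and 3161 at day 10, and at 2665 units with TNF, against 3161 at day 10. Its largest log2 ratio was 0.58, for day 10 against progenitor, and with TNF it was -0.25. The brighter Capg probe set (93331_at) lay close to the floor, at 504 units in progenitors, 356 at day 7 and 456 at day 10, and at 446 units with TNF, against 456 at day 10. Day 7 was under the floor, so its 2 comparisons gave only bounds, at least 1.18-fold lower at day 7 than in progenitors and at least 1.06-fold higher at day 10 than at day 7. The log2 ratio was -0.14 for day 10 against progenitor and -0.03 with TNF.

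Moesin, vimentin and the other Capg probe set were under the floor on all 4 arrays and have no ratio. Msn (98935_at) was between 53 and 198 units, and the dimmer Capg probe set (99215_f_at), whose name marks it as shared within a gene family, between 244 and 354 units. Vim (101046_at) was at 396 units in progenitors, 410 at day 7 and 70 at day 10, and at 259 units with TNF, against 70 at day 10. These levels say only that the probe sets were dim.

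**Figure D2:**
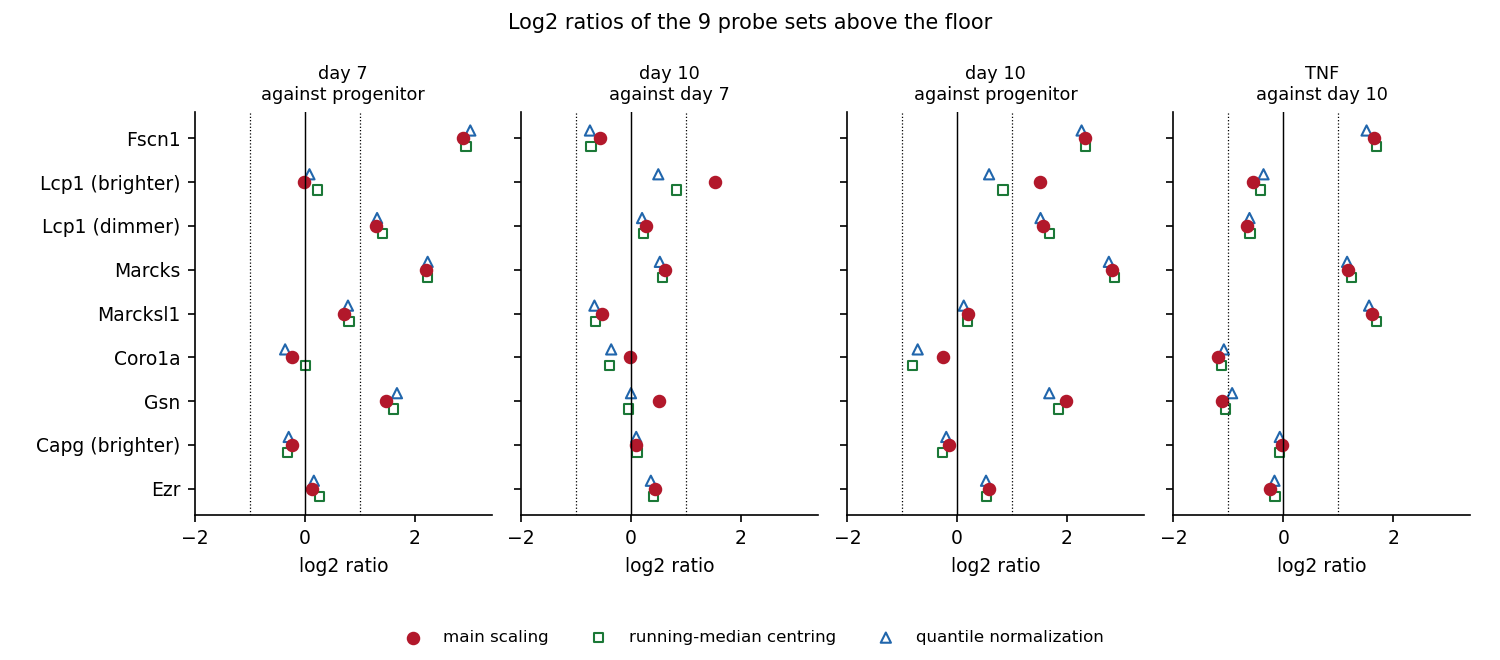
Log2 ratios of the 9 probe sets above the floor in 4 comparisons between single arrays, under the main scaling (filled circles), quantile normalization (triangles) and running-median centring (squares); dotted lines mark 2-fold. The settings part most for the brighter Lcp1 probe set at day 10, and lie close together for TNF against day 10.

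Counted together, 4 of the 9 probe sets above the floor were at least 2-fold higher at day 7 than in progenitors and 0 lower. These were Fscn1, Marcks, Gsn and the dimmer Lcp1 probe set. Over all named probe sets 10.2% were higher and 9.44% lower. The median log2 ratio was 0.71 over the 9 and -0.06 over all 4886. For day 10 against day 7 only the brighter Lcp1 probe set was higher and 0 were lower, against 7.23% and 4.64% over all, with medians of 0.27 and 0.04. For day 10 against progenitor, which shares its arrays with those steps, 5 of 9 were higher and 0 lower, against 17.1% and 14.6%, with medians of 1.52 and 0.02. The 5 were Fscn1, Marcks, Gsn and both Lcp1 probe sets. The 1.52 is the ratio of the brighter Lcp1 probe set itself. It became 0.58 after quantile normalization and 0.84 after centring on probe sets of like level, and the count was 4 in each of these settings. The genes were chosen with earlier results of these data known. These counts, and those with TNF below, are therefore a description and no independent support.

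With TNF 3 of the 9 were at least 2-fold higher (Fscn1, Marcks and Marcksl1) and 2 lower (Coro1a and Gsn). Over all 4887 named probe sets the shares were 4.58% higher and 4.77% lower. The median of the 9 was -0.25, against -0.03 over all, so the group has no common direction here. The Gsn call alone was lost after quantile normalization, where the count was 4. A ratio past 2-fold exceeds the SD of 0.56 between probe sets by definition, so this adds nothing to the count. In this comparison 7.03% of 370 genes had 2 probe sets that differed by more than 1 on the log2 scale.

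**Figure D3:**
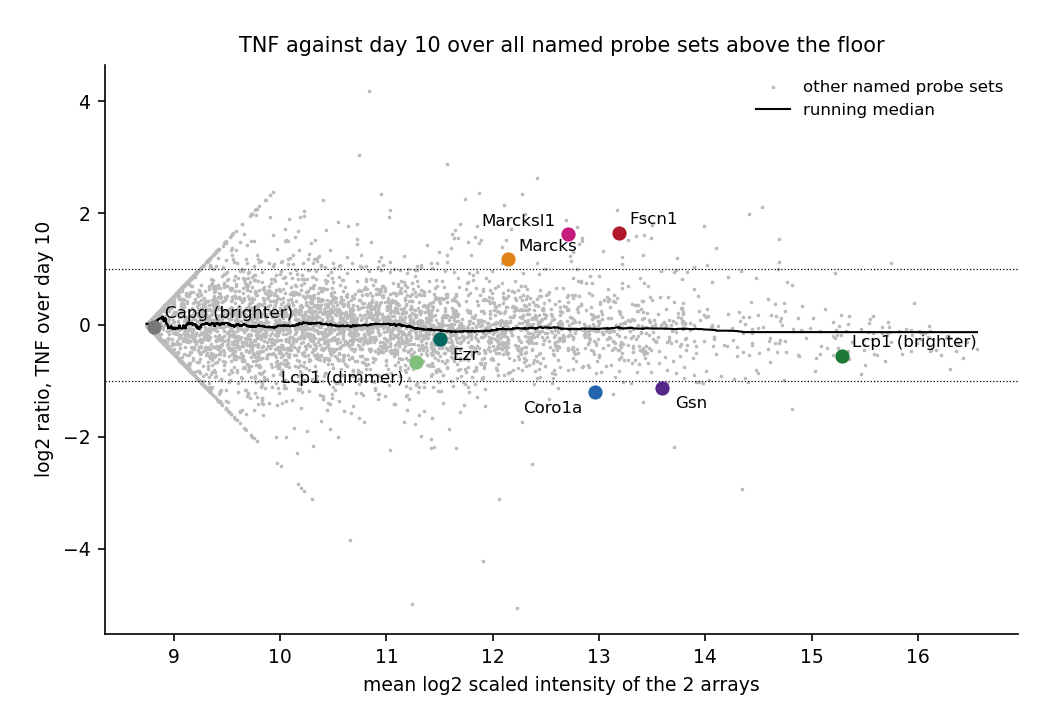
Log2 ratio of TNF over day 10 against the mean log2 intensity of the 2 arrays for all named probe sets above the floor (grey), with the described genes in colour, the running median as a line and 2-fold as dotted lines. Fscn1, Marcksl1 and Marcks lie above the upper dotted line and Coro1a and Gsn below the lower one, while the running median stays close to 0.

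Other measurements also differed between the arrays. Control probe sets for bacterial transcripts added to the samples, which the cells do not make, had median log2 ratios of -0.34 for day 7 against progenitor, 1.5 for day 10 against day 7, 1.18 for day 10 against progenitor and -0.50 for TNF against day 10. The control probe set for the 3′ end of 18S ribosomal RNA was at 260 units in progenitors, 204 at day 7 and 5637 at day 10, and at 5058 units with TNF, against 5637 at day 10, so it set both day 10 arrays apart from the other 2. The ratios of Fscn1, Marcks and Marcksl1 with TNF have the opposite sign to the -0.50 of the bacterial controls, and those of Gsn and Coro1a the same sign. The sum over 10 macrophage marker genes, of which 6 to 7 were above the floor on each array, was 11384 units in progenitors, 46875 at day 7 and 78966 at day 10, and 49307 with TNF, against 78966 at day 10. Like Gsn, this sum was higher at each later stage and was lower with TNF than at day 10. Of 7 macrophage probe sets above the floor, 0 were at least 2-fold higher with TNF and 2 lower, against 4.58% and 4.77% over all. Their median log2 ratio was -0.48. Within the list Cd68, a lysosomal protein gene, was at 25262 units with TNF, against 44389 at day 10, and the macrophage receptor gene Adgre1 at 3741, against 9345. Mrc1, also in the list, was at 2714 units with TNF, against 9009 at day 10. The growth factor receptor gene Csf1r lay the other way, at 12111 units with TNF and 11354 at day 10, as did the endotoxin co-receptor gene Cd14, at 2847 and 1724. C1qa and C1qc were above the floor in progenitors, at 487 and 1679 units, and these and C1qb were under it at day 7, at day 10 and with TNF. The part of these controls and markers in the results for the 10 genes was not tested.

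Genes of dendritic cell migration and adhesion gave the setting for these values, from lists of related genes. Of 17 migration probe sets above the floor, 12 were at least 2-fold higher at day 7 than in progenitors and 0 lower, against 10.2% and 9.44% over all probe sets, with a median log2 ratio of 1.79. The highest ratio was that of Mmp12, a macrophage elastase gene, at 17785 units at day 7 and 90 in progenitors, or at least 41.5-fold (65.4-fold after quantile normalization). With TNF 6 of 16 were higher and 3 lower, against 4.58% and 4.77% over all, with a median log2 ratio of 0.30. At its ends stood Icam1, which encodes an adhesion molecule for T cells, at 8462 units with TNF and 1654 at day 10 (5.12-fold higher), and the gelatinase gene Mmp9, under the floor at -180 units with TNF and 1388 units at day 10 (at least 3.24-fold lower). Ccr7, a dendritic cell marker gene that encodes the receptor for lymph node chemokines, was at 30 units in progenitors, 4296 at day 7 and 6296 at day 10, and at 19239 units with TNF, against 6296 at day 10. Its order over the culture arrays differs from that of Fscn1 in that day 10 is not below day 7. For this step the log2 ratios, 0.55 for Ccr7 and -0.56 for Fscn1, are both smaller than the SD of 0.71 between 2 probe sets. Both are larger than the SD of 0.50 per probe set.

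For TNF against day 10, the lists of other actin genes are given beside the 4.58% and 4.77% over all probe sets. In the list of other crosslinkers and family members 2 of 21 probe sets were higher and 0 lower. The highest was Lasp1, which encodes an actin-binding adaptor, at 1376 units with TNF and 361 at day 10 (at least 3.21-fold), although its other probe set gave a log2 ratio of 0.23. The other of the 2 was a probe set of Actn1, an alpha-actinin gene, chosen after its values were seen, with a log2 ratio of 1.34 where its other probe sets gave 0.75 and 0.55. In the nucleation list 1 of 18 was higher, Nckap1, which encodes a subunit of the WAVE complex (2.28-fold, at 1033 and 453 units), and 0 lower. In the list of monomer and turnover genes 0 of 15 were higher and 1 lower, Limk2, a kinase that inactivates cofilin (2.26-fold). Of 11 probe sets of myosins and tropomyosins, 0 reached 2-fold in either direction. In the adhesion and podosome list 0 of 14 were higher and 1 lower, Pstpip1, whose product recruits the Wiskott-Aldrich protein to podosomes, at 1531 units with TNF and 4450 at day 10 (2.91-fold). Intermediate filament genes had 0 of 5 in either direction.

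For day 7 against progenitor the same lists stand beside 10.2% higher and 9.44% lower over all probe sets. Myosins and tropomyosins had 5 of 10 probe sets at least 2-fold higher and 0 lower, with Myo1f, a leukocyte myosin gene, at 10857 units at day 7 and 2844 in progenitors (3.82-fold). Adhesion and podosome genes had 6 of 15 higher and 1 lower. Cd9, a tetraspanin gene, was 9.57-fold higher (20.6-fold after quantile normalization), and Vcl, which encodes vinculin, 2.23-fold lower, with a second Vcl probe set at a log2 ratio of -0.73. Nucleation genes had 4 of 15 higher and 0 lower, led by the formin gene Diaph2 (at least 3.43-fold). Other crosslinkers had 2 of 21 higher and 0 lower, led by Iqgap1, a scaffold gene (2.88-fold, while its other probe sets gave log2 ratios of 0.56 and 0.29). Of 5 intermediate filament probe sets 1 was higher, the lamin gene Lmna (3.09-fold), and 0 lower. Monomer and turnover genes had 0 of 16 higher and 3 lower, and their median log2 ratio was -0.32, or -0.07 after quantile normalization. Of the 3, 2 were probe sets of Actb, the beta-actin gene, with log2 ratios of -2.73 and -1.59. The lowest, a probe set shared within the actin family, stood at 469 units at day 7 and 3111 in progenitors. The last was a probe set of Limk1, another cofilin kinase gene, named after its values were seen, which was under the floor at day 7. The 3 beta-actin control probe sets, at 11256 to 14295 units at day 7, gave log2 ratios of -0.82 to -0.58, short of 2-fold.

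**Figure D4:**
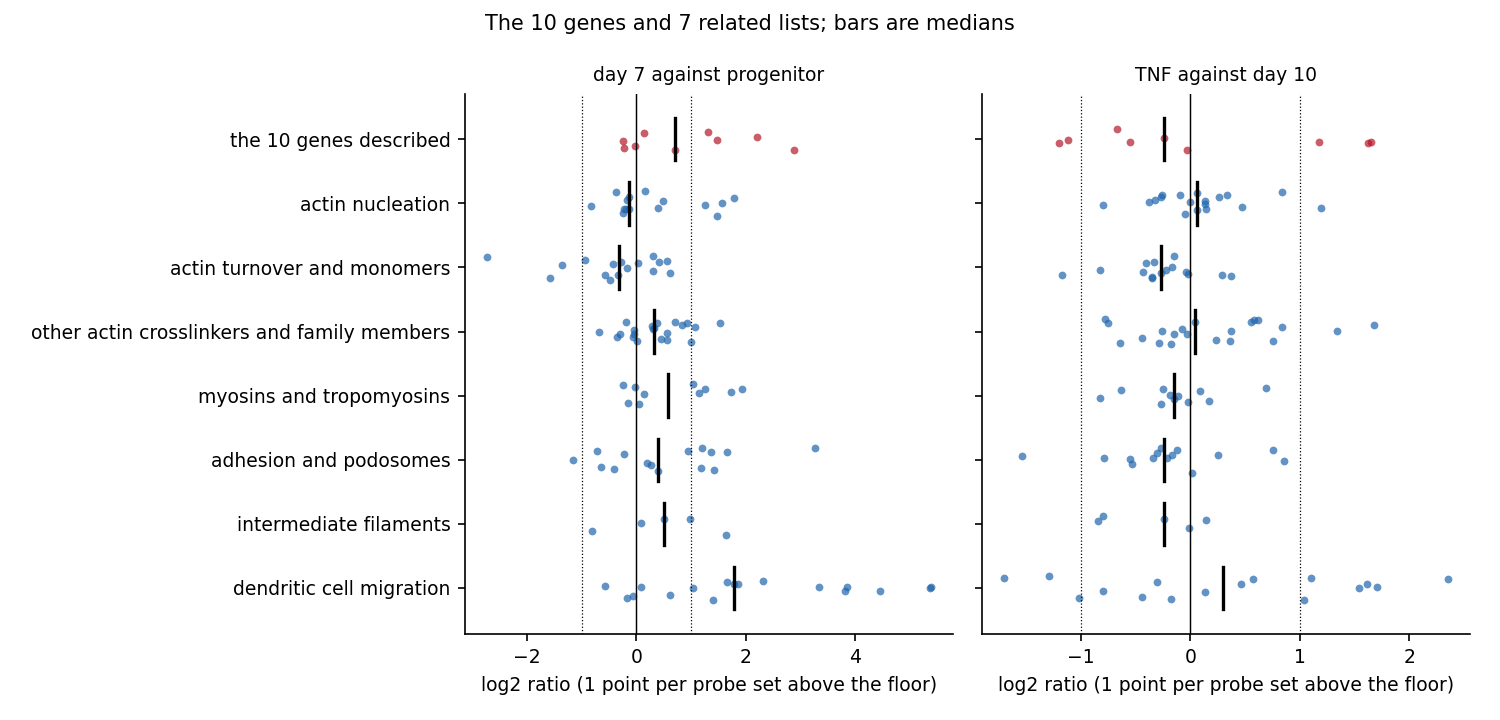
Log2 ratios of each probe set above the floor for the 10 genes (top row) and 7 lists of related genes, for day 7 against progenitor (left) and TNF against day 10 (right); black bars are medians and dotted lines mark 2-fold. The migration list lies farthest to the right at day 7, and with TNF the 10 genes spread to both sides of 0.

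The genes with profiles closest to that of Fscn1 over the 4 arrays were Rap2b, Ly75, Btg1, Icam1 and Csf2rb2, in that order. Likeness was the Euclidean distance between log2 profiles centred on their own means, over 2115 genes whose levels differed at least 2-fold, and these 5 had distances of 0.47, 0.53, 0.67, 0.69 and 0.70. Rap2b, a small GTPase gene, stood at 436 units in progenitors, 2378 at day 7 and 1628 at day 10, and at 4360 units with TNF, against 1628 at day 10. Ly75, which encodes the endocytic receptor DEC-205, stood at 283, 2629 and 2103 units over the same series, and at 9267 units with TNF, against 2103 at day 10. Csf2rb2 is a near copy of another receptor gene, so its probe set may read both. Among the other described genes Marcks ranked 11th by this distance (0.84), Marcksl1 284th, Gsn 771st, Lcp1 893rd and Coro1a 1572nd. With 4 arrays many genes share any one order of levels, so this is a description only.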

How the data were processed

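The authors deposited linear intensities of 12654 Affymetrix probe sets on each array. Of the values, 22.8% to 24.3% were below 0, so some signal had been subtracted. The central 96% of values had a mean of 998.8 to 999.03 on every array, so the arrays had been matched in brightness. Medians were 209.5 for progenitors, 219.1 at day 7, 215.2 at day 10 and 226.0 with TNF. What was subtracted, and the software, are not stated in the labels or the table, and no batch is recorded. Per the labels, RNA was prepared by a published protocol.

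From these intensities, arrays were scaled to their common 75th percentile (factors 0.962 to 1.05), floored at the 60th percentile (428 units) and converted to log2. A probe set was counted when 2 arrays differed at least 2-fold. Of 12654 probe sets, 363 with several symbols, 1993 with none and 66 controls were left out of counts. These classes overlap, and 10276 probe sets remained. Symbols came from the platform annotation, updated through RefSeq. The named genes were the 10 genes, the highest and lowest probe set past 2-fold of each of 7 related lists, marker genes, and the 5 nearest profiles to Fscn1. An eighth list is not reported here. The genes and lists were chosen with earlier results of these data known. Alternatives were 2 other floors, 3 other scalings, centring on a running median of 401 probe sets of like level, and other fold rules. The ratio and count steps were run on simulated arrays, each the progenitor array times a constant, with known differences planted in bright probe sets. No noise was added, so this checks the arithmetic only, and not dim values or shifts between real arrays. Python 3.11.15, pandas 2.3.3, numpy 2.4.6 and matplotlib 3.10.9 were used. No test was fitted, because each group had 1 array.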

Additional observations from a re-analysis of the deposited data

How the results depend on the processing

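Leaving out a replicate was not possible with 1 array per group. Of 212 log2 ratios of the 9 probe sets under 6 other floors or scalings, 206 moved by less than the SD between probe sets of a gene, 6 moved further and 0 of the ratios past 2-fold changed sign. The 6 were Marcks against progenitor, a bound that follows the floor (3.56 and 1.30 at day 7 and 4.18 and 1.91 at day 10, with floors at the 40th and 70th percentile), and the brighter Lcp1 probe set after quantile normalization. The count for day 10 against day 7, 1 in the main setting, was 2 with the floor at the 40th percentile and with a 1.5-fold rule, and 0 after quantile normalization, after running-median centring and with a 3-fold rule. The addition with the low floor was Vim, at a log2 ratio of -1.97, or -1.92 for day 10 against progenitor. With that floor Vim was also past 2-fold with TNF, at 1.31, at levels of 259 and 70 units that lie within the dim range. With a 3-fold rule the counts were 2 at day 7 (Fscn1 and Marcks), 3 for day 10 against progenitor and 2 with TNF (Fscn1 and Marcksl1). The mean of both Lcp1 probe sets at day 7 was 0.64, against -0.02 for the brighter one. Over all named probe sets the share of higher among those past 2-fold at day 10 against day 7 was 60.9%, against 50.1% in the values as deposited and 50.6% after quantile normalization. The lower limit of what can be read is the floor, under which Msn, Vim and the dimmer Capg probe set lay.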

Other observations

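For day 10 against day 7, 7.23% of all named probe sets were at least 2-fold higher and 4.64% lower. Of 15 probe sets of actin monomer and turnover genes 6 were higher and 0 lower, or 3 higher after quantile normalization. Their median log2 ratio was 0.53, or 0.03 after quantile normalization. The highest was the family-shared Actb probe set, at 12430 units at day 10 and 469 at day 7, with another Actb probe set at a log2 ratio of 3.42, and both kept 2-fold after quantile normalization (4.59 and 3.38). The 3 beta-actin control probe sets were between 88983 and 101211 units at day 10 and between 11256 and 14295 at day 7, while the bacterial controls differed by a median of 1.5 on the log2 scale. The part of those controls' difference in these values was not tested. The other 4 were named after their values were seen. Pfn1, which encodes the monomer-binding profilin 1, had a log2 ratio of 1.53, or 1.36 after quantile normalization. Tmsb4x and Tmsb10, which encode monomer-binding thymosins, had 1.82 and 1.16, but 0.28 and 0.50 after quantile normalization, and the gamma-actin gene Actg1 had 1.22, but -0.70.

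Against the same shares, 4 of 16 nucleation probe sets were at least 2-fold lower and 1 higher, with a median log2 ratio of 0.08, or -0.10 after quantile normalization. Of the 4, 2 read a single formin gene, Fmnl1 (log2 ratios -1.33 and -1.16), and another reads Arpc5, which encodes a subunit of the Arp2/3 complex (-1.22), both named after their values were seen. Was, which encodes the Wiskott-Aldrich protein that activates actin branching at podosomes, was 2.58-fold lower, at 2243 units at day 10 and 5783 at day 7, and Baiap2, which encodes a membrane-bending adaptor, was 2.13-fold higher. Among other crosslinkers 3 of 21 were lower and 1 higher, with a median log2 ratio of -0.29. Of these 3, 2 read Actn1, of which one was 4.98-fold lower, and the other probe sets of this gene had log2 ratios of -0.44 and -1.48.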
